A study of Mus musculus with 22 samples.

Results

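The genes described here build, store and break down monoamines, the family of transmitters that holds dopamine, noradrenaline, adrenaline and serotonin. They are the hydroxylases Th, Tph1 and Tph2, the decarboxylase Ddc, dopamine beta-hydroxylase Dbh, the vesicular transporters Slc18a1 and Slc18a2, and the monoamine oxidases Maoa and Maob. These 9 genes were taken by symbol from a table of 57010 rows, and no symbol occurred more than once. The set was selected on function with measured values already known, above all the low Th level of Het islets on the C57 background. In 7 of them the level reached 1 TPM (a transcript share scaled for transcript length and library total) in at least 5 samples, the requirement for a test. Dbh and Slc18a2 stayed below it.

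Polyadenylated RNA was measured in isolated pancreatic islets of 22 male mice aged 5.5 weeks, with 1 mouse per library. Mice were wild type for MafA (WT) or carried 1 copy of the S64F form of this transcription factor of beta cells (Het). Each genotype was studied on a background labelled C57 and on one labelled Mixed, whose strains are not given in the labels. Each WT group held 5 mice and each Het group 6. The numbers of the libraries run through the groups in turn, so library order and group cannot be told apart. Between 14812 and 16133 genes reached 1 TPM in a library, and read depth is unknown. Mafa mRNA in Het islets was at 26.5% of the WT mean in C57 and 25.4% in Mixed.

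Tyrosine hydroxylase (Th) and the tryptophan hydroxylases (Tph1, Tph2) catalyse the rate-limiting first step towards catecholamines and serotonin, with tetrahydrobiopterin as cofactor. Ddc then forms dopamine or serotonin, Dbh turns dopamine into noradrenaline, the SLC18A proteins load the amines into vesicles, and the MAO enzymes of the outer mitochondrial membrane oxidise them. Beta cells hold serotonin and dopamine in or beside their insulin granules, and in mouse islets Tph1 is strongly induced in pregnancy through the prolactin receptor.

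The windows upstream of the start sites of 3 genes whose levels differed between genotypes are shown first, to give the sequence beside the measurements that follow. Each line holds the 250 bases before a start site from RefSeq on GRCm38.p6, written on the gene's own strand. Start sites of a gene are numbered by ascending coordinate. Tph1 and Ddc lie on the minus strand, so their first window is downstream of their second. Capitals mark a match to the cAMP response element TGACGTCA, which reads the same on both strands, or to TGCTGA, which reads TCAGCA from the other strand and is the half-site of the element that MAF proteins bind. The Th window is chr7:142899996-142900245 (minus strand), the first Tph1 window chr7:46667378-46667627 (minus strand), the second Tph1 window chr7:46672538-46672787 (minus strand) and the Maoa window chrX:16619448-16619697 (plus strand).
Th: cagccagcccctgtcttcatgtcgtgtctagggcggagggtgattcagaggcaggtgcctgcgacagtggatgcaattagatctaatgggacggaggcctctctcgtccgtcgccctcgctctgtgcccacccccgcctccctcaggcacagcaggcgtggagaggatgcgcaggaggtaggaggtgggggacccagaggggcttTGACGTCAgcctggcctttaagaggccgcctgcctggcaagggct
Tph1, first start site: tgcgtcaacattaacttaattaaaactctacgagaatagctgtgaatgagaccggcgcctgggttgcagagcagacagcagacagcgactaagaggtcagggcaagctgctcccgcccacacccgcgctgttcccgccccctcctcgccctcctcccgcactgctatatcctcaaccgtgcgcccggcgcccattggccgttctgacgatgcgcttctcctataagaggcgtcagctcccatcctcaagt
Tph1, second start site: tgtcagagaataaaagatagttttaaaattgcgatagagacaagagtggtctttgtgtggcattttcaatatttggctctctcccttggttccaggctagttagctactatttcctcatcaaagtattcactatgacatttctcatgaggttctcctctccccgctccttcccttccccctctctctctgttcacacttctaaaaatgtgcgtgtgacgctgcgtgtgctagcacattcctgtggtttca
Maoa: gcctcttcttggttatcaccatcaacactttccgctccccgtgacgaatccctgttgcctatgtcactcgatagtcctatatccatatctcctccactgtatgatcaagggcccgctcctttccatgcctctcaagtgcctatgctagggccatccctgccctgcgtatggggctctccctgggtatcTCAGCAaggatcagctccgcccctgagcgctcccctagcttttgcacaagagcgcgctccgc
The Th window held the whole cAMP response element, beginning 45 bases before the start, which 1.55% of the 32851 RefSeq windows of this length also hold. The Maoa window held a TCAGCA that begins 62 bases before the start, and 16.1% of windows hold TGCTGA or TCAGCA. Neither sequence occurred in the Tph1 windows. RefSeq entries were found for 7 of the 9 genes, with 9 windows in all, of which 1 held the cAMP response element and 3 held a MAF half-site. The other half-sites lay in the first Ddc window, where TGCTGA begins 60 bases before the start, and in the Tph2 window, where TCAGCA begins 87 bases before it. The second Ddc window held neither sequence. The matches are letters only, and no binding was measured.

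**Figure D1:**
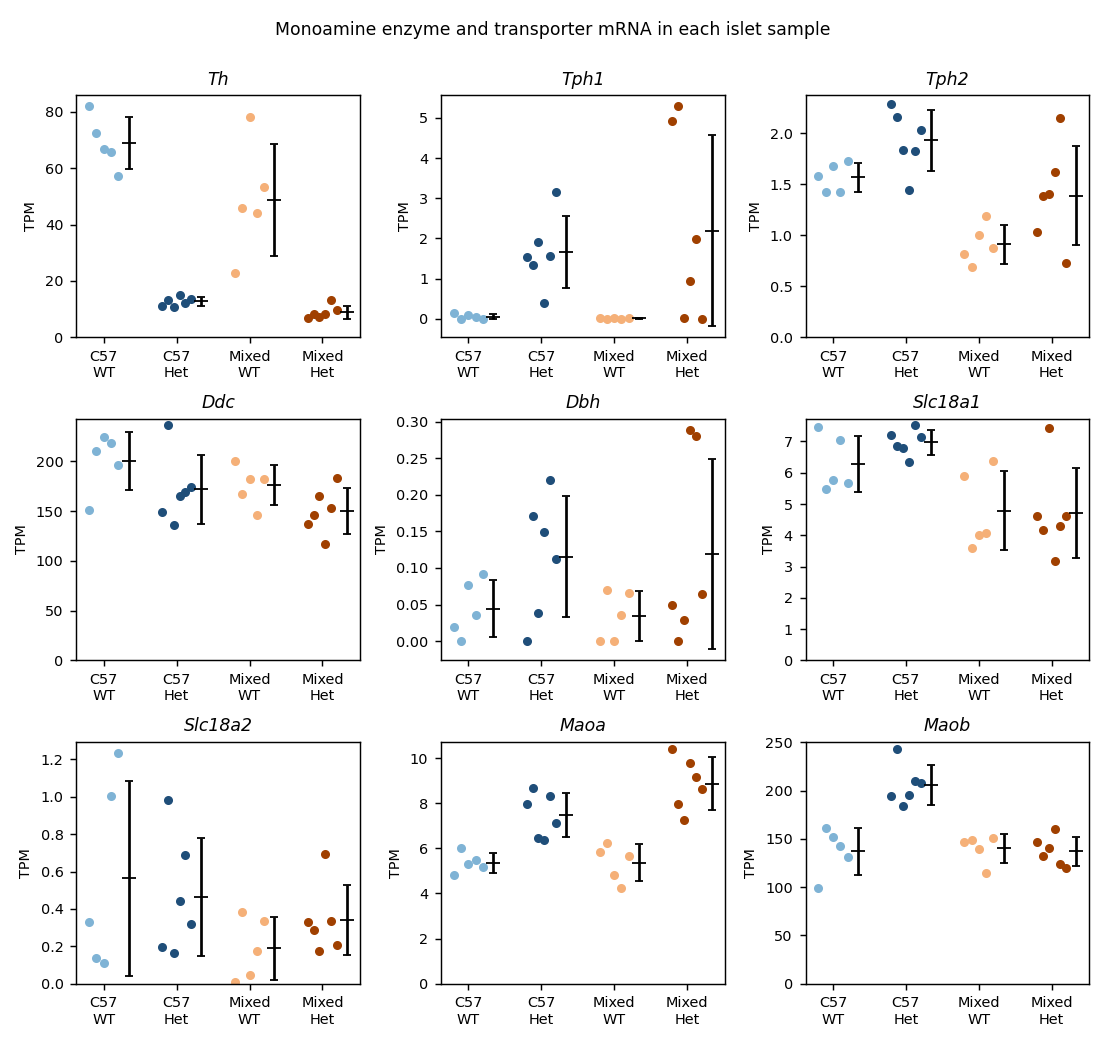
TPM of the 9 monoamine genes in each of the 22 islet samples, 1 panel per gene with its own linear axis, points for single mice, and a black dash with bars for the mean and SD of each group. Th lies lower in all Het samples than in all WT samples of the same background, and Maob in C57 Het, from 184 to 243 TPM, lies above the highest sample of the other groups, 161 TPM.

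Th, which makes L-DOPA from tyrosine, stood at 57.2, 65.8, 66.7, 72.6 and 82.1 TPM in the 5 C57 WT mice. In the 6 C57 Het mice it ran from 10.8 over a median of 12.7 to 15.1 TPM. The groups were far apart, with the lowest WT sample well above the highest Het sample. The C57 means were 68.9 ± 9.21 TPM for WT (SD, n = 5) and 12.7 ± 1.62 TPM for Het (n = 6), so Het islets held 18.4% of the WT level. On the log2(TPM + 1) scale, which understates changes of low genes, the difference was -2.35 (SE 0.20). It is given with no test, because earlier results of these data had shown it.

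Th was lower in Het on the Mixed background too. The genes were chosen with earlier results of these data known, so the Mixed test is not taken as independent of that choice. The 5 Mixed WT mice had 22.8, 44.0, 45.8, 53.3 and 78.1 TPM, and the 6 Mixed Het mice ran from 6.93 over 8.12 to 13.2 TPM. Again no Het sample reached a WT sample, although WT mice of this background spread more than those of C57. The means were 48.8 ± 19.9 TPM (SD, n = 5) and 8.88 ± 2.35 TPM (n = 6), so the Het level was 18.2% of WT. The difference on the log2(TPM + 1) scale was -2.26 (SE 0.20, limma adjusted p = 2.63e-08). The interaction, the Mixed difference minus the C57 difference, was 0.09 (SE 0.29, limma adjusted p = 0.869), and a p of this size does not show that the backgrounds acted alike. Between backgrounds Th did not pass, at -0.58 for Mixed minus C57 in WT (limma adjusted p = 0.0804) and -0.49 in Het (limma adjusted p = 0.0782). Both passed without Mixed WT replicate 3, at -0.77 in WT (limma adjusted p = 0.0146) and -0.49 in Het (limma adjusted p = 0.0404). With arrayWeights both passed as well (limma adjusted p of 0.0345 and 0.0311). The Het value also passed without Mixed WT replicate 1 or Mixed Het replicate 5 (limma adjusted p of 0.0195 and 0.0369). It did so too with the samples of the comparison alone (limma adjusted p = 0.0164).

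In bulk islet RNA, fewer cells of a type and less RNA per cell cannot be told apart. Insulin-producing beta cells are the main source of islet RNA, and 8 of their markers were summed. On C57 the sum ranged from 369910 to 449820 TPM in WT and from 323790 to 379230 TPM in Het, and on Mixed from 401260 to 478790 TPM in WT and from 250650 to 342600 TPM in Het. Ins2 and Ins1 made up most of the sum, with C57 WT means of 260458 and 132855 TPM against 428580 TPM for all 8. The members of this sum did not move alike. In C57 Ins1 was lower in Het (-0.61), G6pc2 higher (0.38), and the other 6 did not pass, and in Mixed 5 of 8 were lower and 3 did not pass. Across the 22 samples Th correlated with the beta-cell sum (Pearson, both as log2(TPM + 1), here and for the other marker sums) at r = 0.821, but at 0.057 once each group's mean was taken off. These points share libraries and group differences, and the part of cell composition in the Th result was not tested.

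Tph1, the tryptophan hydroxylase of peripheral tissues, went the other way. It was almost at 0 in every WT mouse, with 0, 0.00797, 0.0387, 0.0872 and 0.149 TPM in C57 and 0.00771, 0.0101, 0.0129, 0.0286 and 0.0315 TPM in Mixed. In C57 Het the 6 mice ran from 0.396 over a median of 1.56 to 3.17 TPM, above all C57 WT mice. The 6 Mixed Het mice were split, at 0.00708, 0.0129, 0.946, 1.98, 4.92 and 5.29 TPM. A level of 1 TPM was reached by 5 of 6 C57 Het mice, 3 of 6 Mixed Het mice and none of the WT mice.

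Tph1 therefore met the requirement for a test only through Het samples, and its calls are no evidence about the gene set. On the log2(TPM + 1) scale Het minus WT was 1.26 for C57 (SE 0.38, limma adjusted p = 0.0123) and 1.27 in Mixed (SE 0.38, limma adjusted p = 0.00975). With no filter on low values the adjusted p from limma was 0.0317 and 0.0243. With a pseudocount of 0.1 in place of 1 the differences were 3.38 and 3.005, so their size rests on the pseudocount. The Mixed groups overlapped, since 2 of the 6 Het mice lay under 0.1 TPM. The interaction was 0.01 (SE 0.54, limma adjusted p = 0.992). With the level of digestive-enzyme genes of acinar cells as a covariate, the C57 difference was 1.14 and no longer passed (limma adjusted p = 0.0952).

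Mast cells also express Tph1, so their markers were read beside it. Of 6 mast-cell markers 1 was high enough to test, Kit, which islet cells also express. Mcpt4 and Fcer1a were at 0 in all 22 samples, and Cpa3 reached at most 0.193 TPM. Summed, the 6 markers ranged from 1.87 to 3.56 TPM in C57 WT, 2.51 to 5.08 in C57 Het, 1.26 to 2.30 in Mixed WT and 2.52 to 7.16 in Mixed Het. The 6 ductal markers moved more closely with Tph1, at r = 0.747 over the 22 samples and 0.615 after removal of group means. Their summed level ranged from 155 to 180 TPM in C57 WT, 197 to 309 in C57 Het, 138 to 209 in Mixed WT and 191 to 562 in Mixed Het, with 5 of the 6 tested. The part of duct cells in the Tph1 values was not tested.

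Tph2, the tryptophan hydroxylase of serotonin neurons, was present at a low level in all samples. Its means were 1.57 ± 0.139 TPM (SD, n = 5) in C57 WT, 1.93 ± 0.300 (n = 6) in C57 Het, 0.913 ± 0.191 (n = 5) in Mixed WT and 1.39 ± 0.490 (n = 6) in Mixed Het. Neither genotype difference passed, at 0.19 in C57 (limma adjusted p = 0.249) and 0.30 in Mixed (limma adjusted p = 0.0550) on the log2(TPM + 1) scale. The Mixed difference passed without Mixed WT replicate 4 or Mixed Het replicate 1 or 6 (limma adjusted p from 0.0108 to 0.0415). It also passed with eBayes without trend (limma adjusted p = 0.0405). Tph2 was the hydroxylase that differed between backgrounds in WT mice, by -0.43 for Mixed minus C57 (SE 0.13, limma adjusted p = 0.0360). The 5 C57 WT mice, at 1.43 to 1.73 TPM, all lay above the 5 Mixed WT mice, at 0.687 to 1.19 TPM. This WT call was lost without C57 WT replicate 1, 3 or 5, or Mixed WT replicate 1, 2 or 3 (limma adjusted p from 0.0534 to 0.0911). It was also lost with no filter on low values (limma adjusted p = 0.0668) and with the acinar covariate (limma adjusted p = 0.0777). In Het mice Mixed minus C57 was -0.31 (limma adjusted p = 0.0657). It passed without C57 Het replicate 4 (limma adjusted p = 0.0455) or Mixed Het replicate 5 (limma adjusted p = 0.0188). Quantile normalization, the total that leaves out abundant genes, eBayes without trend and arrayWeights also made it pass (limma adjusted p from 0.0149 to 0.04925).

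The ratio of Tph1 to Tph2 within a sample was at most 0.0943 in C57 WT and ran from 0.274 over a median of 0.770 to 1.56 in C57 Het. On Mixed it was at most 0.0327 in WT, while Het mice ran from 0.00915 over 0.752 to 4.76 and so reached into the WT range.

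Ddc, the decarboxylase that both routes share, was among the most abundant of the 9 genes. The 5 C57 WT mice had 151, 196, 210, 218 and 224 TPM, and the 6 C57 Het mice ran from 136 over 167 to 237 TPM. In Mixed the WT mice had 146, 167, 182, 183 and 200 TPM and the Het mice 116 to 184 TPM, with a median of 150 TPM. Het and WT overlapped on both backgrounds, and Het means were 85.9% of WT in C57 and 85.4% in Mixed. Neither log2(TPM + 1) difference passed, with -0.23 for C57 (SE 0.13, limma adjusted p = 0.178) and -0.23 for Mixed (limma adjusted p = 0.157). The Mixed difference passed with each of the 3 other scalings, and the C57 difference with quantile normalization and with the total that leaves out abundant genes, but not with median-of-ratios scaling. With quantile normalization the values were -0.33 in C57 (limma adjusted p = 0.0419) and -0.38 in Mixed (limma adjusted p = 0.0179). Ddc also passed in C57 with arrayWeights (-0.34, limma adjusted p = 0.0132) and without C57 Het replicate 2 (-0.32, limma adjusted p = 0.0424). Mixed minus C57 did not pass, at -0.18 in WT (limma adjusted p = 0.427) and -0.19 in Het (limma adjusted p = 0.323).

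Since Th fell much further than Ddc, the ratio of the enzymes within a sample changed. Ddc was 2.97 ± 0.664 times the Th level in C57 WT (SD, n = 5) and 13.6 ± 2.27 times in C57 Het (n = 6). The Mixed ratios were 4.30 ± 2.55 in WT and 17.6 ± 4.10 in Het. The Het ratios, from 11.0 upwards, all lay above the WT ratios, the highest of which was 8.77 in a Mixed WT mouse.

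Dbh, which marks cells that go on from dopamine to noradrenaline, was close to 0. Its group means lay between 0.0341 and 0.119 TPM and its highest sample at 0.289 TPM. The 4 exact two-sided permutation tests of Dbh gave p from 0.123 to 1. The smallest p that the design allows is 0.00216 for 5 against 6 or 6 against 6 mice and 0.00794 for 5 against 5.

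Of the vesicular transporters, Slc18a1 (VMAT1) was the one high enough to test. It stood at 5.48, 5.66, 5.78, 7.04 and 7.46 TPM in C57 WT and ran from 6.36 over 7.01 to 7.51 TPM in C57 Het. Mixed WT mice had 3.59, 4.01, 4.08, 5.90 and 6.38 TPM, and Mixed Het mice ran from 3.17 over 4.46 to 7.42 TPM. Genotype made no difference that passed, at 0.14 in C57 (limma adjusted p = 0.472) and -0.03 in Mixed (limma adjusted p = 0.902) on the log2(TPM + 1) scale. Background did among Het mice, with -0.51 for Mixed minus C57 (SE 0.14, limma adjusted p = 0.0108). In that comparison 5 of the 6 Mixed Het mice lay below every C57 Het mouse, and the other, at 7.42 TPM, lay within the C57 range. The same difference in WT mice was -0.35 (limma adjusted p = 0.141).

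Slc18a2 (VMAT2), the transporter of monoamine neurons, had group means between 0.189 and 0.564 TPM. In C57 WT the mice ranged from 0.111 to 1.23 TPM, and in the other groups the highest was 0.981 TPM. None of its 4 exact two-sided permutation tests passed, with p from 0.188 to 0.812, and over the 8 tests of Dbh and Slc18a2 the smallest adjusted p was 0.549. Its level moved with markers of sympathetic neurons and chromaffin cells, as the next paragraphs give.

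**Figure D2:**
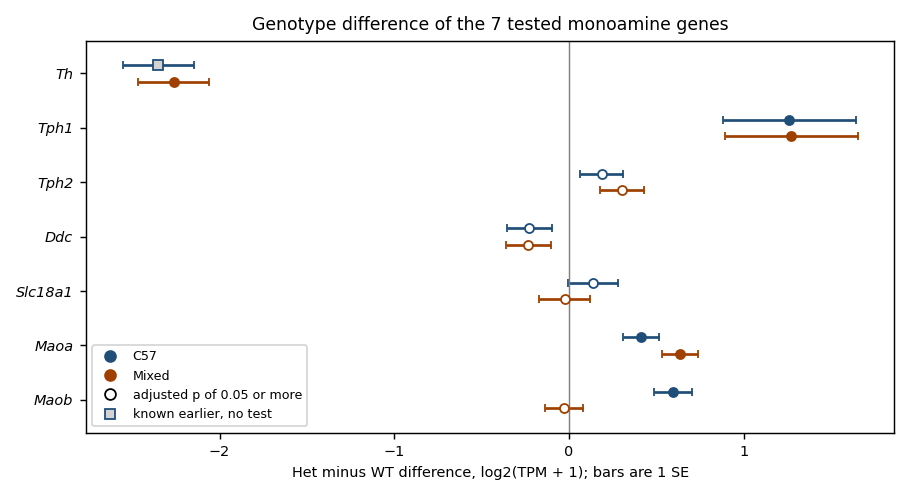
Het minus WT difference in log2(TPM + 1) of the 7 tested monoamine genes, with 1 SE as bars, C57 in blue and Mixed in brown, open points for an adjusted p of 0.05 or more, and a grey square for Th in C57, which has no test here. Th is at -2.35 and -2.26, Tph1 at 1.26 and 1.27, and Maob at 0.60 in C57 against -0.03 in Mixed.

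Maoa, the oxidase that prefers serotonin and noradrenaline, rose in Het islets on both backgrounds. C57 WT mice had 4.82, 5.19, 5.29, 5.48 and 6.02 TPM, and the 6 C57 Het mice ran from 6.36 over 7.53 to 8.68 TPM. Mixed WT mice had 4.23, 4.83, 5.66, 5.86 and 6.25 TPM, and Mixed Het mice ran from 7.25 over 8.89 to 10.4 TPM. On each background all Het mice lay above all WT mice. On the log2(TPM + 1) scale C57 Het exceeded C57 WT by 0.41 (SE 0.10, limma adjusted p = 0.00366), and Mixed Het exceeded Mixed WT by 0.63 (SE 0.10, limma adjusted p = 4.43e-05). The interaction of 0.22 (SE 0.15, limma adjusted p = 0.341) did not pass, and neither did the Mixed minus C57 differences, -0.0055 in WT (limma adjusted p = 0.983) and 0.22 in Het (limma adjusted p = 0.126). With the acinar covariate the C57 difference was 0.35 and missed the threshold (limma adjusted p = 0.0598).

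Maob, the oxidase that prefers phenylethylamine, was about as abundant as Ddc and rose on the C57 background. The C57 WT mice had 98.7, 131, 143, 152 and 161 TPM, and the 6 C57 Het mice ran from 184 over 202 to 243 TPM, all above WT. The means were 137 ± 24.2 TPM (SD, n = 5) and 206 ± 20.7 TPM (n = 6). The log2(TPM + 1) difference was 0.60 (SE 0.11, limma adjusted p = 2.74e-04).

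In Mixed mice the Maob difference did not pass. WT mice had 115, 139, 146, 149 and 150 TPM, and the 6 Het mice ran from 119 over 136 to 160 TPM, within much the same range. The difference there was -0.03 (SE 0.11, limma adjusted p = 0.851). The test of the difference between backgrounds passed, with an interaction of -0.62 (SE 0.15, limma adjusted p = 0.0203). Over 31 alternatives and left-out mice it stayed between -0.69 and -0.51, with limma adjusted p from 0.00357 to 0.0418. Among Het mice Maob was lower in Mixed than in C57 by 0.58 on the log2(TPM + 1) scale, the value being -0.58 (SE 0.10, limma adjusted p = 4.55e-04), with no overlap. In WT mice the background difference was 0.04 (limma adjusted p = 0.848).

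The oxidases kept a similar ratio in 3 of the 4 groups. Maob was 25.4 ± 3.08 times Maoa in C57 WT (SD, n = 5), 27.7 ± 2.42 times in C57 Het (n = 6) and 26.3 ± 1.93 times in Mixed WT (n = 5). In Mixed Het the ratio was 15.6 ± 2.26 (n = 6), from 13.6 to 19.4, below the 20.5 that was the lowest value elsewhere. These genes, neighbours in opposite orientation on the X chromosome, correlated at r = 0.624 over the 22 samples after removal of group means and at 0.367 before it.

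Counted over the genes tested, 4 of 7 monoamine genes differed between Het and WT in C57, 3 higher (Tph1, Maoa, Maob) and 1 lower (Th). Of all 16756 genes tested 38.0% passed in this comparison, 26.4% higher and 11.6% lower. In Mixed 3 of 7 passed, 2 higher (Tph1, Maoa) and 1 lower (Th), where 44.1% of all genes did (30.7% higher, 13.5% lower). With 7 genes, of which Th in C57 was known earlier and Tph1 was tested only through Het samples, nothing is read from these counts. The groups did not overlap in 4 of the 7 genes in C57, against 21.0% of all genes, and in 2 of 7 in Mixed, against 23.6%. The interaction passed in 1 of 7, Maob, which was negative, against 7.36% of all genes (4.62% positive, 2.74% negative). Mixed minus C57 in WT passed in 1 of 7, Tph2, which was lower and did not overlap, against 11.3% of all genes (6.30% higher, 4.99% lower) and 6.12% without overlap. In Het it passed in 2 of 7, Slc18a1 and Maob, both lower, against 20.5% of all genes (13.3% higher, 7.13% lower), and Maob did not overlap, which 9.85% of all genes share. The median log2 difference of the 7 was 0.19 in C57 and -0.03 in Mixed, against 0.08 and 0.10 over all genes. The C57 and Mixed genotype comparisons share no samples, but each background comparison shares groups with them.

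On the per-length TPM scale, the order of the levels in C57 WT was Ddc (200 TPM), Maob (137), Th (68.9), Slc18a1 (6.28), Maoa (5.36), Tph2 (1.57), Slc18a2 (0.564), Tph1 (0.0566) and Dbh (0.0445). The ranges of the neighbours Ddc and Maob overlapped, as did those of Slc18a1 and Maoa, of Slc18a2 and Tph1, and of Tph1 and Dbh. In C57 Het, Maob came first at 206 TPM, ahead of Ddc at 172 TPM, with overlapping ranges. In Mixed Het, Th at 8.88 TPM had come down to the level of Maoa at 8.87 TPM, and their ranges overlapped.

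Markers of other cell types of the preparation were read beside these values. Those of glucagon-producing alpha cells (6 of 6 tested) were higher in Het on both backgrounds, with sums of 19102 to 57520 TPM (WT) and 71476 to 117520 TPM (Het) on C57, and of 15859 to 27618 TPM (WT) and 65502 to 107360 TPM (Het) on Mixed. Maoa correlated with this sum at r = 0.748 across the 22 samples and at 0.03 after removal of group means, Maob at 0.369 and -0.113, and Tph1 at 0.634 and -0.017. Gcg made up most of the alpha-cell sum, with a C57 WT mean of 35284 TPM against 38300 TPM for all 6 markers. The part of alpha cells in the Maoa, Maob and Tph1 results was not tested. Acinar markers (7 of 7 tested) had sums of 195 to 370 TPM in C57 WT, 238 to 1563 in C57 Het, 163 to 810 in Mixed WT and 576 to 1121 in Mixed Het, and their part was looked at only through the covariate above.

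Further marker sums had their highest group mean in Mixed Het, beside the lower Slc18a1 and Maob of Mixed Het against C57 Het. Macrophage and leukocyte markers (4 of 5 tested) summed to 43.8 to 83.5 TPM in Mixed Het. These lay above the highest Mixed WT sample (33.4) and the highest C57 Het sample (31.9). In C57 WT this sum ranged from 25.2 to 45.2 TPM and so overlapped with Mixed Het. Maob had r = -0.49 with this sum over the 22 samples and -0.554 after removal of group means. Slc18a1 had -0.299 and 0.188. Mesenchymal markers (5 of 5 tested) summed to 112 to 465 TPM in Mixed Het, 125 to 192 in Mixed WT and 109 to 144 in C57 Het. In C57 WT they summed to 126 to 246 TPM. Slc18a1 had r = -0.547 and -0.423 with them, and Maob -0.443 and -0.229. Endothelial markers (5 of 5 tested) summed to 326 to 603 TPM in Mixed Het and 271 to 338 in C57 Het. They summed to 343 to 411 TPM in Mixed WT and 279 to 692 in C57 WT, so Mixed Het overlapped with all other groups. Maob had r = -0.604 and -0.346 with them, and Slc18a1 -0.401 and -0.108. Delta and PP cell markers (4 of 4 tested) had a mean sum of 52737 TPM in Mixed Het and 30630 in C57 Het. Slc18a1 had r = -0.434 and -0.356 with this sum, and Maob -0.062 and -0.025. Schwann cell markers (6 of 6 tested) had mean sums of 29.1 TPM in Mixed Het and 14.1 in C57 Het. With these Slc18a1 had r = -0.427 and 0.11, and Maob -0.389 and 0.086. The part of these cells in the Slc18a1 and Maob results was not tested.

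Nerve fibres and chromaffin cells are the classical sources of Th, Dbh and Slc18a2. Of their 8 markers 6 were tested, and Pnmt, the enzyme of adrenaline synthesis, reached at most 0.0363 TPM in any sample. The noradrenaline transporter Slc6a2 reached at most 0.147 TPM. The summed markers ranged from 14.4 to 59.6 TPM in C57 WT, 18.9 to 54.3 in C57 Het, 5.30 to 27.5 in Mixed WT and 28.3 to 64.1 in Mixed Het. Slc18a2 followed this sum at r = 0.776 over the 22 samples and 0.892 after removal of group means, and Dbh at 0.665 and 0.624. Th had -0.386 and 0.247, and the part of these cells in the Th values was not tested. All these correlations are descriptions over samples that share library and groups.

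**Figure D3:**
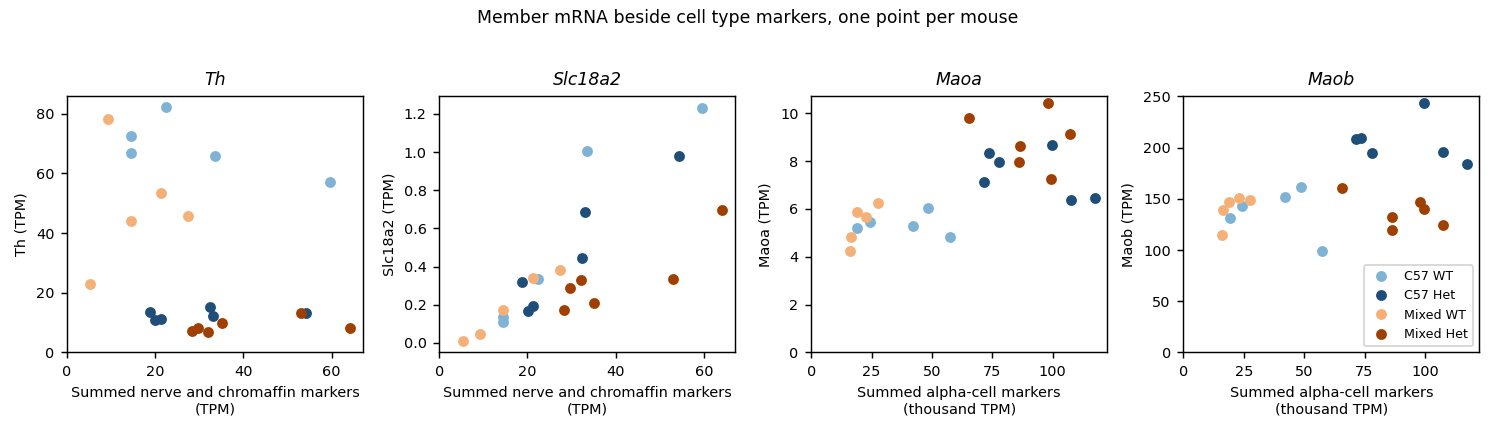
Level of 4 monoamine genes in the 22 samples against summed cell type markers, in TPM on both linear axes, 1 point per mouse, with Th and Slc18a2 against markers of sympathetic neurons and chromaffin cells, Maoa and Maob against alpha-cell markers, and colours for the 4 groups. With the nerve markers r is 0.776 for Slc18a2 and -0.386 for Th.

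Genes with the most similar course over the 22 samples were listed by Pearson r of log2(TPM + 1). They were taken among the genes tested, with provisional, pseudogene and ID-like symbols passed over. For Th they were Rnf182 (r = 0.959), Mlxipl (0.947), which encodes the glucose-responsive factor ChREBP, and Hes6 (0.946). On C57 the mean of Rnf182 was 11.0 TPM in WT and 3.10 in Het, and on Mixed 9.08 and 1.46 TPM. That of Mlxipl was 420 and 114 TPM on C57, and 358 and 72.0 TPM on Mixed. Taking off the group means changed the list to Bmp1 (0.772), Hmga1 (0.755) and Trim6 (0.712) and so to other genes altogether. Maoa was most like Sccpdh (0.957), Gpc1 (0.953) and Cr1l (0.952). Maob was most like Isoc1 (0.929), Trim37 (0.918) and Enox2 (0.912), and Isoc1, also highest in C57 Het, had means of 70.9 (WT) and 98.8 TPM (Het) on C57, and 59.9 and 64.3 TPM on Mixed. Tph1 was most like Cldn8 (0.878), Fmo2 (0.835) and Cd40 (0.818), Tph2 like Dera (0.818), Selenoh (0.802) and Dhrs4 (0.764), Ddc like Akr1c14 (0.788), Abhd15 (0.786) and B3gnt3 (0.770), and Slc18a1 like Man2b1 (0.827), Mri1 (0.816) and Usp51 (0.791).

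Further genes of monoamine biology were read from lists of 72 genes, of which 36 could be tested. Het and WT differed in 17 of the 36 in C57 (10 higher, 7 lower) and in 16 in Mixed (9 higher, 7 lower), the interaction passed in 6 (2 higher, 4 lower), against 38.0%, 44.1% and 7.36% of all genes. With median-of-ratios scaling the counts were 20 in C57 (10 higher) and 17 in Mixed (6 higher). That scaling put the median of all genes at -0.01 on both backgrounds, against 0.08 (C57) and 0.10 (Mixed) as deposited. The median difference of the 36 genes was -0.07 in C57 and 0.10 in Mixed. For the single lists below, 26.4% of all genes were higher and 11.6% lower in C57, and 30.7% and 13.5% in Mixed. Each list holds few tested genes, and nothing is read from its counts.

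The cofactor tetrahydrobiopterin is made by Gch1, Pts and Spr and recycled by Pcbd1 and Qdpr. Of 7 cofactor genes, all tested, 2 passed in C57 (1 higher, 1 lower) and 4 in Mixed (3 higher, 1 lower). Gch1, the first and rate-limiting enzyme, had 37.6, 41.0, 45.8, 47.6 and 73.3 TPM in C57 WT and 48.9 to 60.4 TPM in C57 Het. In Mixed WT it had 50.4, 97.0, 126, 137 and 157 TPM, and in Mixed Het 39.7 to 49.6 TPM. Gch1 was thus high in Mixed WT mice, and all Mixed Het mice lay below them. The difference was 0.16 in C57 (limma adjusted p = 0.553) and -1.20 in Mixed (SE 0.20, limma adjusted p = 6.64e-05), with an interaction of -1.37 (SE 0.29, limma adjusted p = 0.00776). Mixed WT exceeded C57 WT by 1.13 (SE 0.21, limma adjusted p = 0.00123).

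Pcbd1 rose on both backgrounds, by 0.37 in C57 (limma adjusted p = 7.4e-04) and 0.44 in Mixed (limma adjusted p = 8.37e-05), from WT means of 223 and 222 TPM. Pts fell in C57 by 0.45 (limma adjusted p = 0.00771) and had a difference of -0.18 in Mixed (limma adjusted p = 0.265). Spr had a difference of -0.16 in C57 and rose by 0.29 in Mixed (limma adjusted p = 0.00832), with an interaction of 0.44 (limma adjusted p = 0.0269) that was lost without C57 WT replicate 1 or Mixed Het replicate 5 (limma adjusted p of 0.0506 and 0.0503). Its Mixed call was lost under each of the 3 other scalings. The call of Qdpr in Mixed, at 0.21 (limma adjusted p = 0.0456), was lost in 20 alternatives, and Pcbd2 passed in neither background (0.07 and 0.24).

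Of 4 other synthesis enzymes 2 were tested, and 1 was lower in C57 and none passed in Mixed. That gene, named after its value was seen, was Hdc, which makes histamine, at -0.43 in C57 (limma adjusted p = 0.0105) and -0.02 in Mixed (limma adjusted p = 0.926), and with the acinar covariate its C57 call was lost.

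Of 5 other breakdown enzymes 4 were tested, with 1 lower in C57 and 1 higher in Mixed. Sult1a1, a sulphotransferase of phenols and amines, had a difference of -0.41 in C57 (limma adjusted p = 0.0817) and rose by 0.60 in Mixed (limma adjusted p = 0.00985), with an interaction of 1.01 (SE 0.26, limma adjusted p = 0.0228). Named after its value was seen, the mitochondrial aldehyde dehydrogenase Aldh2 fell by 0.31 in C57 (limma adjusted p = 0.0123).

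**Figure D4:**
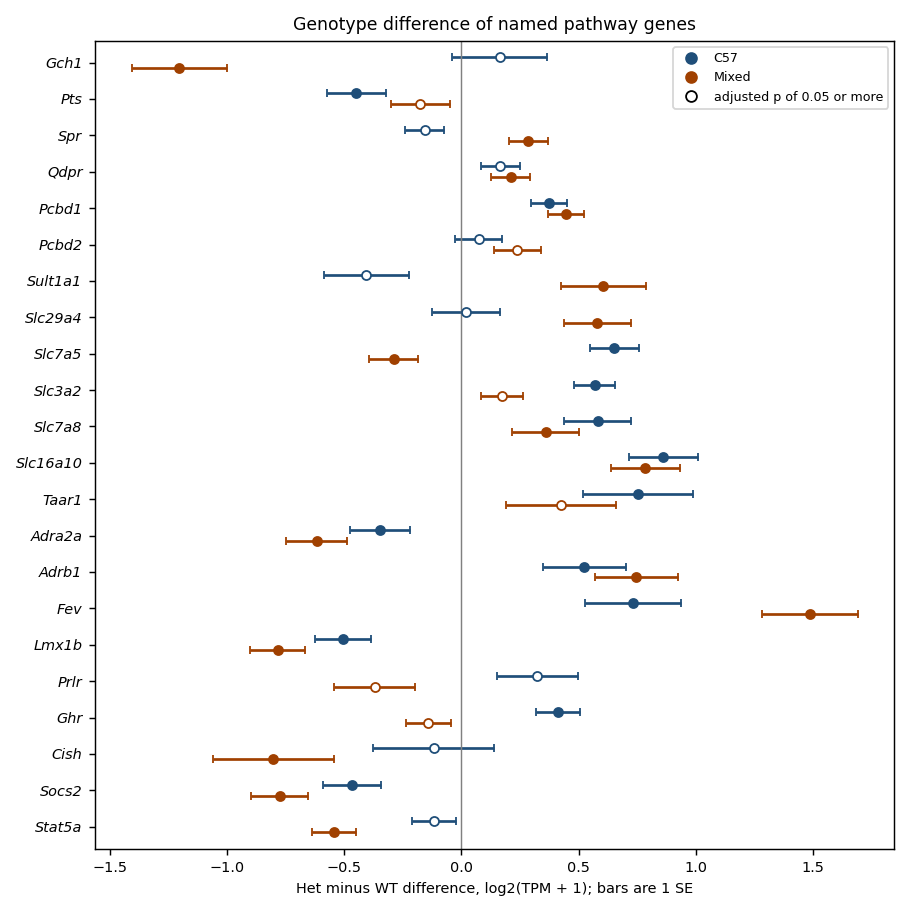
Het minus WT difference in log2(TPM + 1) of 22 named genes of monoamine biology outside the 9 described genes, with 1 SE as bars, C57 in blue, Mixed in brown and open points for an adjusted p of 0.05 or more. Slc16a10 is higher on both backgrounds (0.86 and 0.78). The estimates of Gch1 (0.16, an open point, and -1.20) and Slc7a5 (0.65 and -0.29) differ in sign.

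Of 11 uptake transporters of amines and of their precursor amino acids 5 were tested. In C57 4 rose, all of them amino acid carriers, where 26.4% of all genes did. In Mixed 3 rose (Slc16a10, Slc7a8 and the monoamine carrier Slc29a4) and 1 fell (Slc7a5), against 30.7% and 13.5% of all genes. Slc16a10, an aromatic amino acid carrier, rose by 0.86 in C57 (SE 0.15, limma adjusted p = 1.5e-04) and 0.78 in Mixed (SE 0.15, limma adjusted p = 2.1e-04), with no overlap, its means being 82.9 and 149 TPM on C57 and 82.1 and 143 TPM on Mixed. Slc7a5, the large neutral amino acid carrier, rose by 0.65 in C57 (limma adjusted p = 8.23e-05) and differed by -0.29 in Mixed (limma adjusted p = 0.0300). Its interaction was -0.94 (SE 0.15, limma adjusted p = 0.00133), and its means were 37.8 (WT) and 59.8 TPM (Het) on C57, and 67.5 and 55.1 TPM on Mixed. The Mixed call of Slc7a5 was lost in 7 alternatives. Its partner Slc3a2 rose by 0.57 in C57 (limma adjusted p = 6.17e-05) and had 0.17 in Mixed (limma adjusted p = 0.123).

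Slc7a8 rose by 0.58 in C57 (limma adjusted p = 0.00299), and its 0.36 in Mixed (limma adjusted p = 0.0439) was lost in 17 alternatives. Slc29a4, a plasma membrane monoamine carrier, rose in Mixed by 0.58 (SE 0.14, limma adjusted p = 0.00267) and had 0.02 in C57 (limma adjusted p = 0.932). Its interaction of 0.56 did not pass (limma adjusted p = 0.0905). The reuptake transporters of dopamine (Slc6a3) and serotonin (Slc6a4) could not be tested, with highest samples of 0.0511 and 0.116 TPM.

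Receptors of monoamines were mainly too low to test. Of 14 serotonin receptors only Htr3a was tested, and it passed in neither genotype comparison (-0.12 and 0.77). Of the others Htr1b had the highest group mean, 0.668 TPM. Of 6 dopamine and trace amine receptors only Taar1 was tested, and it rose in C57 by 0.75 (SE 0.23, limma adjusted p = 0.0149), from 16.9 ± 5.40 to 29.0 ± 8.97 TPM, and had 0.42 in Mixed (limma adjusted p = 0.148). The C57 call of Taar1 was lost without C57 WT replicate 5 (0.61, limma adjusted p = 0.0589) and with the acinar covariate (0.69, limma adjusted p = 0.0997). Of 9 adrenergic receptors 3 were tested. Adra2a, the receptor through which adrenaline inhibits insulin release, fell in Mixed by 0.62 (limma adjusted p = 6.28e-04), from 136 to 88.3 TPM, and its fall in C57 of 0.35 (limma adjusted p = 0.0389) was lost in 10 alternatives. Adrb1 rose by 0.52 (limma adjusted p = 0.0240) and 0.75 (limma adjusted p = 0.00188), at group means up to 2.41 TPM, and its C57 call was lost in 4 alternatives.

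Transcription factors that set up monoamine neurons were read last with the signals known to induce Tph1. Of 10 such factors 7 were tested, with 1 higher and 2 lower in C57 and 1 higher and 1 lower in Mixed. Fev (PET1), a factor of serotonin neurons that beta cells share, rose by 0.73 in C57 (SE 0.21, limma adjusted p = 0.00806) and 1.49 in Mixed (SE 0.21, limma adjusted p = 6.71e-06), and the interaction of 0.76 did not pass (limma adjusted p = 0.107). Its means were 13.3 (WT) and 22.1 TPM (Het) on C57, and 7.83 and 24.1 TPM on Mixed. Lmx1b, another factor of serotonin neurons, fell by 0.50 (limma adjusted p = 0.00221) and 0.78 (limma adjusted p = 1.88e-05). So these factors of serotonin neurons moved in opposite directions. Gata2, named after its value was seen, fell by 0.44 in C57 (limma adjusted p = 0.0137), a call lost without C57 WT replicate 5 (-0.31, limma adjusted p = 0.0568) and with arrayWeights.

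Among 6 genes of prolactin and growth hormone signalling, all tested, C57 Het had 2 higher and 1 lower, and Mixed Het 3 lower. Prlr, the prolactin receptor, passed in neither background, at 0.32 (limma adjusted p = 0.145) and -0.37 (limma adjusted p = 0.0867). Socs2, a target of this pathway, fell by 0.47 (limma adjusted p = 0.00540) and 0.78 (limma adjusted p = 3.44e-05). Cish, another target, had a difference of -0.12 in C57 and fell by 0.80 in Mixed (limma adjusted p = 0.0151), and the latter was -0.54 without Mixed WT replicate 2 (limma adjusted p = 0.0606). Stat5a fell in Mixed by 0.54 (limma adjusted p = 9.17e-05) and had -0.12 in C57 (limma adjusted p = 0.347). Ghr rose in C57 by 0.41 (limma adjusted p = 0.00206) and had -0.14 in Mixed (limma adjusted p = 0.238), with an interaction of -0.55 (SE 0.13, limma adjusted p = 0.0191). Stat5b, named after its value was seen, rose in C57 by 0.41 (limma adjusted p = 0.00121) and had -0.06 in Mixed (limma adjusted p = 0.595), with an interaction of -0.47 (limma adjusted p = 0.0267) that was lost without C57 WT replicate 5 (limma adjusted p = 0.0512) and without a filter on low values.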

How the data were processed

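The authors deposited 1 table of TPM for 22 libraries, with 57010 Ensembl IDs paired with symbols per the file headers, and each column sums to 1000000. The submitters' processing notes name STAR 2.7.10b, MultiQC 1.7 and the build mm39, without roles, and the counting tool and annotation are not given in the sources used here. TPM keeps no depth, so no counting interval was computed, and a fall of very abundant transcripts raises the TPM of others. Libraries were made from poly(A) RNA per the labels' protocols. Where the column names give an age range, the age in the design text was used.

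Columns were matched to samples by library name, and 0 value columns were left unused. Values were analysed as log2(TPM + 1), with the pseudocount 1. Genes with at least 1 TPM in at least 5 samples were tested (16756). The model held 4 group means over the 22 samples and was fitted in R 4.3.3 by lmFit and trended eBayes of limma 3.58.1, and Benjamini-Hochberg adjustment covered all genes tested, with a threshold of 0.05. All tests are two-sided. Each library came from a separate mouse. Dbh and Slc18a2 were compared by exact permutation tests over samples. Outside the 9 genes, list genes were named by an adjusted p under 0.05 with a log2 difference of at least 0.5 in a genotype comparison or the interaction, or, for receptors, transporters and cofactor enzymes, by a mean of at least 10 TPM in a group. The lists leave out 2 genes, which are not reported here. Similar genes were the 3 with the highest Pearson r once provisional, pseudogene and ID-like symbols were passed over. Members and lists were chosen with earlier results of these data known.

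Promoter windows came from RefSeq on GRCm38.p6, a build other than the one in the notes, and the 50 bases after each start were left out. The fit was tested on simulated data. The alternatives were a pseudocount of 0.1, no filter, a stricter one (mean TPM of 5), quantile and median-of-ratios scaling, a total that leaves out genes over 1% of a sample, the samples of a comparison alone, an acinar covariate, eBayes without trend, arrayWeights, and leaving out each mouse.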

Additional observations from a re-analysis of the deposited data

Results flagged for a closer look

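Among the 7 tested monoamine genes and the 22 list genes named by rule, the limma interaction test passed in 6. Of all genes tested 7.36% passed it. The rule names genes partly by this same test, so nothing is read from the count. The Mixed difference minus the C57 difference, on the log2(TPM + 1) scale, was -0.62 for Maob (adjusted p = 0.0203), -1.37 for Gch1 (adjusted p = 0.00776), 1.01 for Sult1a1 (adjusted p = 0.0228), -0.94 for Slc7a5 (adjusted p = 0.00133), 0.44 for Spr (adjusted p = 0.0269) and -0.55 for Ghr (adjusted p = 0.0191). Without a filter on low values the Sult1a1 interaction no longer passed. The Spr interaction was lost when either of 2 mice was left out.

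Single mice stood apart from the rest of their group by Dixon's criterion in 11 of 124 combinations of gene and group, where chance gives about 1 in 20. Among the monoamine genes, Slc18a1 was at 7.42 TPM in Mixed Het replicate 3, with the next mouse at 4.63 TPM, and Slc18a2 was at 0.696 TPM in Mixed Het replicate 4, with the next at 0.337 TPM. Mixed Het replicate 1 stood apart in 5 genes, with Slc29a4 at 59.7 TPM (next 42.0), Slc16a10 at 202 TPM (next 145), Lmx1b at 6.65 TPM (next 4.67) and 2 low values, Cish at 5.45 TPM (next 10.6) and Qdpr at 143 TPM (next 165). C57 WT replicate 1 was high in Slc29a4, at 57.6 TPM (next 38.5), and in Fev, at 22.2 TPM (next 12.7). C57 WT replicate 2 had Gch1 at 73.3 TPM (next 47.6), and C57 Het replicate 2 had Pcbd1 at 317 TPM (next 290.0).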

How the results depend on the processing

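No paired analysis was possible because the labels number no replicates, so accession order named the mice. Of the 1215 alternative values of the 9 genes, 1129 kept their direction and side of the threshold, 10 lost a call, 25 gained one and 51 changed sign, all 51 of them in differences that were not called. The calls of Th and Maoa in Mixed, of Maob in C57 and in the interaction, and of Slc18a1 and Maob between backgrounds in Het passed under every alternative that tested them.

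With the acinar covariate 2 of the 7 tested monoamine genes passed in C57 instead of 4, and 3443 of all genes instead of 6362. The 4 include Th, known earlier, and Tph1, tested only through Het samples, so nothing is read from this change. The count of monoamine genes that passed in Mixed minus C57, WT, was 1, for Tph2. A mean TPM of at least 5 left Tph2 untested, so the count of 0 there was fixed in advance. Without a filter or with the acinar covariate the count was 0, with arrayWeights 2, and with a mouse left out 0 to 1. In Het it was 2, and 4 with arrayWeights or without Mixed Het replicate 5 (2 to 4 over left-out mice). In the WT comparison 12 of the 36 tested pathway genes passed (6 higher, 6 lower), against 11.3% of all genes. The 12 became 2 with the samples of that comparison alone, 6 with the acinar covariate and 3 to 12 with a mouse left out (3 without C57 WT replicate 1). In the Het comparison 6 of the 36 tested pathway genes passed, against 20.5% of all genes. The count was 3 with a mean TPM of at least 5, where Hnmt, Rnls and Sult1a1 were left untested. It was 13 with arrayWeights and 3 to 8 with a mouse left out (3 without C57 Het replicate 1 or Mixed Het replicate 6). Over all genes, the interaction passed in 1233, in 714 without a filter, 2628 with arrayWeights and 771 to 1775 with a mouse left out (771 without Mixed Het replicate 5). Mixed minus C57 passed in 1892 in WT, in 1251 with a mean TPM of at least 5 and 831 with its own samples, and in 3428 in Het, in 2223 with a mean TPM of at least 5 and 6572 with arrayWeights. Median-of-ratios scaling gave 3293 higher and 3300 lower genes in C57 and 3663 and 3751 in Mixed, against 4422 and 1940, and 5137 and 2258. Apart from genes that a filter left untested, the cause of these shifts was not tested.

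Signs changed as follows, in differences that were not called. The interaction of Ddc was 0.0461 with the acinar covariate, 0.1288 with arrayWeights and -0.0691 to 0.0913 with a mouse left out. That of Tph1 was -0.3749 with a pseudocount of 0.1, -0.0186 with median-of-ratios scaling, -0.0141 with quantile normalization, -0.0231 without the abundant genes, -0.2079 with arrayWeights and -0.2606 to 0.2678 with a mouse left out, and that of Th -0.1504 to 0.2829. In Mixed minus C57, WT, Maoa was 0.0394 with arrayWeights and -0.0551 to 0.0633 with a mouse left out, Maob -0.0026 without the abundant genes, -0.0048 with the acinar covariate, -0.0334 with arrayWeights and -0.0697 to 0.1118 with a mouse left out, and Dbh -0.0299 to 0.0017. In Mixed minus C57, Het, Dbh was -0.0717 with a pseudocount of 0.1, -0.0027 without the abundant genes and -0.0422 to 0.0311 with a mouse left out, and Tph1 -0.3122 to 0.2162. In Het minus WT, Mixed, Slc18a1 was -0.1439 to 0.0685 and Maob -0.0978 to 0.0096, and in C57 Slc18a2 was -0.1651 to 0.0868. Depth is unknown, so what it limits for Dbh, Slc18a2 and Tph1 cannot be given.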
